A study of Arabidopsis thaliana and Boechera depauperata with 12 samples.

Results

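The comparison described here set *B. depauperata* plants after acquired heat stress (A/HS) against *B. depauperata* plants after basal heat stress (B/HS), with no control library. *B. depauperata* is a thermotolerant polyploid mustard, and its reads had been counted on the gene models of its diploid relative *B. stricta*. For A/HS, plants received 38 °C for 1 h, recovered at 22 °C for 1 h and were then held at 43 °C for 3 h. For B/HS, plants went directly from 22 °C to 38 °C for 3 h. The members are 4 of the 12 RNA-seq libraries of the study, namely EW13 and EW14 (A/HS) and EW11 and EW12 (B/HS), and every *B. stricta* gene in the count table. The table held 27416 genes, of which 4155 had no count in these libraries and 16483 had enough counts to be tested. The A/HS arm differs from the B/HS arm in its pretreatment, its recovery step and its final temperature, so these factors cannot be told apart. By the study's methods the 2 replicates were grown and processed separately, starting at germination, so the spread within an arm is that between 2 such preparations.

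Plants that survive a mild heat treatment can withstand a later, hotter one, a state called acquired thermotolerance. Heat shock factors switch on genes for chaperones, which keep proteins soluble or refold them, and the endoplasmic reticulum and the chloroplast have folding and proteolytic systems of their own. Elevated temperature is also read through the light signalling pathway, in which the transcription factor PIF4 and the COP1/SPA ubiquitin ligase act in *A. thaliana*, and heat acts on photosynthesis, the circadian clock and pre-mRNA splicing. Functions given below are those of the *A. thaliana* homologs, since *B. stricta* identifiers could be paired with *A. thaliana* identifiers for 1693 genes only. These pairs come from the study's table of spliced genes, so every gene named by symbol was listed there and the named genes do not sample the genome evenly.

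Sequencing depth was 5019575 counts in EW13 and 3869082 in EW14 after A/HS, against 5446796 in EW11 and 5663048 in EW12 after B/HS. A count of 3 corresponded to between 0.482 and 0.975 CPM (counts scaled by the TMM-adjusted library total). EW14 stood apart from the other libraries. A total of 4 genes took 25.7 % and 34.0 % of the counts in EW13 and EW14, against 24.2 % and 27.6 % in EW11 and EW12, and Bostr.7921s0001 alone took 16.2 % in EW14. Over the 16483 genes, log2 CPM correlated at r = 0.90 between EW13 and EW14, at 0.93 and 0.91 between EW13 and the B/HS libraries EW11 and EW12, and at 0.95 between EW11 and EW12. By correlation, EW13 was thus closer to both B/HS libraries than to its own replicate. The median absolute log2 difference of EW13 was 0.42 from EW11, 0.47 from EW12 and 0.47 from EW14, so by that measure it was closer to EW11 only. For this reason values without EW13 and without EW14 are given beside the results that depend on them.

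The labels give the tissue as root. All 7 markers of photosynthetic leaf cells were abundant, with a summed level of 8068 and 7148 CPM in EW13 and EW14, against 10166 and 12690 CPM in EW11 and EW12. Of the root markers, *PLT2*, a root meristem transcription factor, had 0 and 8 counts in EW13 and EW14 and 0 in both B/HS libraries, while the phosphate transporters *PHT1;4* and *PHO1* were detected in all 4 libraries. The summed level of the root markers that were tested was 28.9 and 89.7 CPM after A/HS, against 21.2 and 61.0 CPM after B/HS. The leaf marker levels go against the label, and their part in the differences below was not tested. In bulk samples, fewer cells of a type and less RNA per cell cannot be told apart.

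No gene of the 16483 was differentially expressed (DE) between A/HS and B/HS, where DE required a 4-fold or larger change and an adjusted *P* under 0.05 in edgeR's quasi-likelihood test (0 %). The smallest adjusted *P* was 0.263. At an unadjusted *P* under 0.05, 1100 genes (6.67 %) were higher and 1077 (6.53 %) were lower after A/HS. Of these, 191 (1.16 %) were at least 4-fold higher and 104 (0.631 %) at least 4-fold lower. DESeq2 on the same libraries called 76 genes DE, of which 57 (0.346 %) were higher and 19 (0.115 %) were lower. All 76 had an unadjusted *P* under 0.05 in edgeR and none had overlapping libraries. Libraries also did not overlap for 1063 of the 1100 higher and 1076 of the 1077 lower genes at that mark. The libraries did not overlap for 3673 genes that were higher (22.3 %) and for 3790 that were lower (23 %). With 2 libraries against 2, an exact two-sided permutation test of a single gene cannot go below *P* = 0.333. Every edgeR adjusted *P* of a gene named below lies between 0.263 and 0.947, so the differences that follow are given as values that did not pass correction over all genes.

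The genes with the largest differences were compared for how alike the A/HS libraries were. Among the 191 genes at least 4-fold higher, the level (CPM + 0.5) of EW14 was more than 3 times that of EW13 for 129 (67.5 %), against 626 of all 16483 genes (3.80 %). Their median log2 fold change was 3.38 without EW13 and 1.60 without EW14. Among the 104 genes at least 4-fold lower, EW14 exceeded EW13 by more than 3 times for 3 genes and the opposite held for 7, and the median log2 fold change was -2.56 without EW13 and -2.29 without EW14. Most genes of the higher set were thus far higher in EW14 than in EW13, whereas most of the lower set were low in both A/HS libraries to a similar degree. Both sets were chosen from these same values. A single high library can raise the mean of an arm, while a mean at least 4-fold lower needs both libraries to be low. Part of this contrast between the sets therefore follows from the choice. Without EW13, edgeR called 152 genes DE (146 higher, 6 lower), and without EW14 it called 0. In each of these fits the A/HS arm holds 1 library, which is assumed to vary as EW11 and EW12 do, so the calls carry no replicate check within A/HS.

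**Figure D1:**
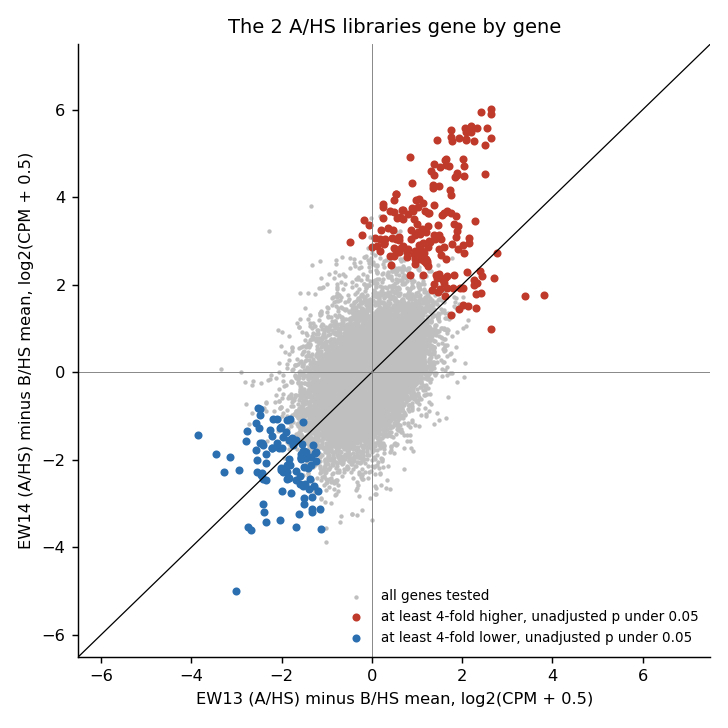
Each point is a gene, placed by its log2(CPM + 0.5) in EW13 (x axis) and in EW14 (y axis) after subtracting the mean of the B/HS libraries. Red and blue points are the 191 genes at least 4-fold higher and the 104 at least 4-fold lower at an unadjusted *P* under 0.05, chosen from these same values. Most red points lie well above the diagonal, and the blue points lie on both sides of it.

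Of the 129 genes that were mainly high in EW14, 3 had an *A. thaliana* partner, against 1630 of all 16483 tested. Bostr.25542s0155 had 4.63 and 48.8 CPM in EW13 and EW14, against 0.527 and 0.161 CPM in EW11 and EW12, from 3 counts and 1 count. Bostr.0697s0070 had 12.4 and 133 CPM after A/HS, against 1.05 and 2.25 CPM after B/HS. Both were higher in each A/HS library than in either B/HS library, but EW14 was 10.5 and 10.7 times EW13. Their log2 fold changes of 6.18 and 5.42 were 3.69 and 2.88 without EW14. *DGR1*, which encodes a cell wall protein of the DUF642 family, was the only gene with a symbol that DESeq2 called DE in the higher direction. It had 5.18 and 41.0 CPM after A/HS, against 0.527 and 1.44 CPM after B/HS, a log2 fold change of 4.47 (SE 1.00), or 5.32 without EW13 and 2.34 without EW14.

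Other genes were higher by a similar amount in both A/HS libraries. Bostr.26833s0595, which has no partner, had the smallest unadjusted *P* of the genes that were higher (8.0e-05). It had 340 and 309 CPM in EW13 and EW14, against 78.3 and 64.2 CPM in EW11 and EW12, a log2 fold change of 2.19 (SE 0.30) and a DESeq2 adjusted *P* of 1.4e-05. Bostr.18351s0197 had 75.4 and 52.0 CPM after A/HS, against 14.2 and 15.4 CPM after B/HS. In both genes the A/HS libraries lay several-fold above the B/HS libraries. Both were chosen by small *P* among genes whose libraries do not overlap, so this separation follows from the choice. Among the lower genes without a partner, Bostr.1460s0153 had 15.4 and 9.10 CPM after A/HS, against 67.2 and 58.0 CPM after B/HS. Bostr.7128s0412 had 8 and 0 counts after A/HS, against 67 and 127 counts after B/HS.

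*PIF4*, the transcription factor that promotes growth at warm ambient temperature, had the smallest unadjusted *P* of all 16483 genes (6.3e-05). Its level was 7.22 and 7.80 CPM in EW13 and EW14, against 37.4 and 46.7 CPM in EW11 and EW12. The log2 fold change was -2.48 (SE 0.33), and it was -2.43 without EW13 and -2.54 without EW14. The A/HS libraries were nearly equal and far below both B/HS libraries. The DESeq2 adjusted *P* was 0.00044, and with *DGR1* it was one of 2 paired genes that DESeq2 called DE at 4-fold or more. Of the 8 light signalling genes tested, 3 were lower at an unadjusted *P* under 0.05 and 0 were higher, against 7.58 % and 3.6 % of the 1609 genes paired one-to-one. Their median log2 fold change was -0.64, against 0.02 over all genes and -0.07 over the 1546 one-to-one pairs tested in both species. The other members past that mark belong to the ubiquitin ligase that degrades light-response factors. *COP1*, its RING-finger subunit, had 12.2 and 12.7 CPM after A/HS, against 24.6 and 22.8 CPM after B/HS (log2 fold change -0.93, SE 0.31). *SPA3*, a COP1 partner, had 31.7 and 24.7 CPM after A/HS, against 74.1 and 42.7 CPM after B/HS (-1.05, SE 0.35, or -0.61 without EW11). *PIF3*, a relative of *PIF4*, was at 9.26 and 8.45 CPM after A/HS, against 17.0 and 13.2 CPM after B/HS, at an unadjusted *P* of 0.063.

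Circadian clock genes divided, with 5 members at a log2 fold change above 0 and 5 below. Of 10 tested, 3 were lower at an unadjusted *P* under 0.05 and 0 higher, against 7.58 % and 3.6 % of the one-to-one pairs, with a median log2 fold change of 0.00 that was -0.43 without EW13 and 0.09 without EW14. *RVE8*, a MYB-like activator of evening genes, had 27.0 and 17.9 CPM after A/HS, against 51.4 and 39.8 CPM after B/HS (-1.01, SE 0.33). *LNK2*, a coactivator that works with RVE8, had 114 and 43.9 CPM after A/HS, against 180 and 188 CPM after B/HS. *PRR7*, a repressor of the morning genes, had 60.7 and 46.5 CPM after A/HS, against 91.4 and 96.3 CPM after B/HS (-0.81, SE 0.28). For *LNK2* the A/HS libraries differed most, and its log2 fold change of -1.22 (SE 0.43) was -2.07 without EW13 and -0.70 without EW14. On the other side, *RVE7* had 164 and 123 CPM after A/HS, against 119 and 52.3 CPM after B/HS. Its log2 fold change was 0.75 (SE 0.41, edgeR unadjusted *P* = 0.10), or 0.28 without EW12.

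Auxin response genes were among the lower ones. Of 6 tested, 3 were lower at an unadjusted *P* under 0.05, against 7.58 % of the one-to-one pairs, and the median log2 fold change was -0.80. These were the auxin response factors *ARF6* (-0.91, SE 0.33) and *ARF4* (-0.77, SE 0.32) and *IAA17*, a repressor of auxin response factors (-0.83, SE 0.35). *ARF6* had 35.4 and 53.6 CPM after A/HS, against 68.8 and 97.8 CPM after B/HS. The A/HS and B/HS libraries did not overlap for any of these 3 genes, which also held for 27 % of the one-to-one pairs in this direction. It held for 1076 of the 1077 lower genes at an unadjusted *P* under 0.05, so it adds little to their choice by *P*. Without EW12, *IAA17* was at -0.47 and *ARF4* at -0.50. *LOG1*, which encodes an enzyme that releases active cytokinin, was further from its B/HS level. It had 34.8 and 19.2 CPM after A/HS, against 114 and 88.8 CPM after B/HS, a log2 fold change of -1.90 (SE 0.36) with a DESeq2 adjusted *P* of 0.0055.

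**Figure D2:**
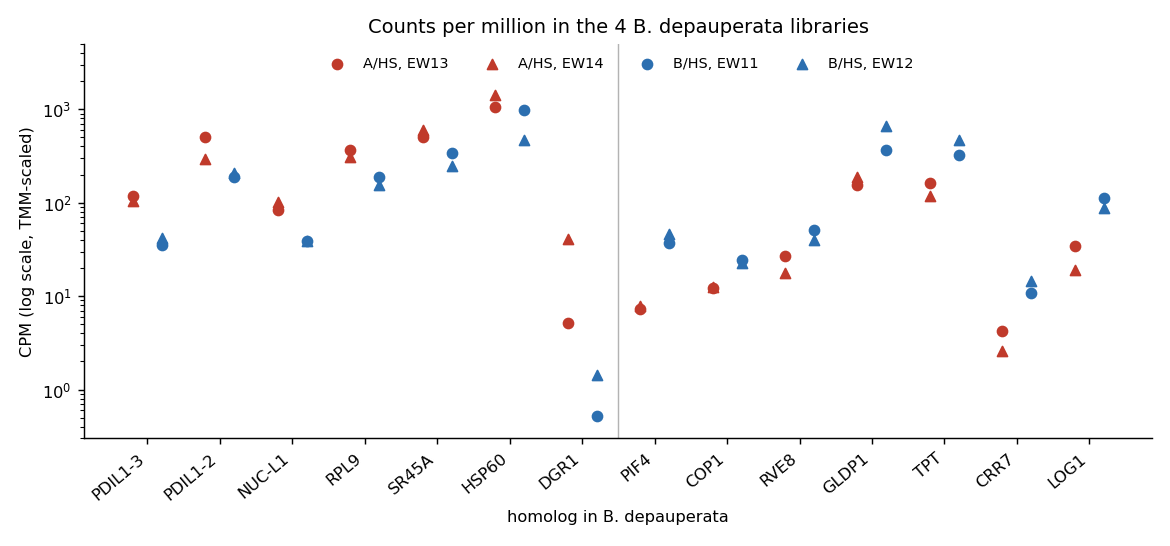
CPM on a log axis for 14 homologs in each A/HS library (red, left of each pair) and each B/HS library (blue, right), with genes that were higher after A/HS left of the grey line and genes that were lower right of it. *PIF4*, *COP1* and *PDIL1-3* have tight pairs that do not overlap, and *DGR1* has A/HS values of 5.18 and 41.0 CPM that are far apart.

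Photosynthesis and photorespiration genes were mostly below their B/HS levels. Of 20 tested, 7 were lower at an unadjusted *P* under 0.05 and 0 were higher, against 7.58 % and 3.6 % of the one-to-one pairs, and 11 had A/HS libraries below both B/HS libraries, against 27 % of genes paired one-to-one. A total of 17 had a log2 fold change below 0 and 3 above it, where 693 of the 1546 one-to-one pairs tested in both species stood above 0. The median was -0.59 (-0.77 without EW13, -0.30 without EW14). *GLDP1*, the P-protein of the mitochondrial glycine decarboxylase of photorespiration, had 155 and 187 CPM after A/HS, against 370 and 658 CPM after B/HS (-1.59, SE 0.37). *TPT*, the triose phosphate translocator that exports fixed carbon from the chloroplast, had 164 and 118 CPM after A/HS, against 321 and 463 CPM after B/HS (-1.47, SE 0.34). Both stood below every B/HS library by a wide margin. *CRR7* and *PNSB1* serve the chloroplast NDH complex of cyclic electron flow. *CRR7* had 4.26 and 2.60 CPM after A/HS, against 10.7 and 14.4 CPM after B/HS (-1.83, SE 0.44), and *PNSB1* differed by -1.13 (SE 0.31). *GLDP2*, the light-harvesting gene *LHCB7* and the thylakoid curvature gene *CURT1C*, named after their values were seen, differed by -0.73, -0.98 and -0.84.

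Other abundant photosynthesis genes did not reach this mark. *RCA*, Rubisco activase, the most abundant member, had 2323 and 2344 CPM after A/HS, against 3875 and 5429 CPM after B/HS, with an unadjusted *P* of 0.070. The light-harvesting gene *LHCA1* differed by -0.15 and *GAPB*, of the Calvin cycle, by 0.19, and their libraries overlapped. Both were picked after their values were seen. Some other chloroplast genes were lower too. *CSK*, a chloroplast sensor kinase, had 14.8 and 11.1 CPM after A/HS, against 35.8 and 36.0 CPM after B/HS (-1.46, SE 0.32). *FTSH11*, a protease needed for thermotolerance in *A. thaliana*, was the only one of 9 plastid protease genes at an unadjusted *P* under 0.05, at -0.81 (SE 0.31), or -0.53 without EW14. Of the one-to-one pairs, 7.58 % were lower at that mark. The median of that list was -0.06, and it was -0.39 without EW13 and 0.14 without EW14.

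Protein folding genes of the endoplasmic reticulum included the gene with the smallest unadjusted *P* among the one-to-one pairs that were higher. *PDIL1-3*, a protein disulfide isomerase, which forms disulfide bonds in secretory proteins, had 119 and 104 CPM in EW13 and EW14, against 35.6 and 42.2 CPM in EW11 and EW12. Its log2 fold change was 1.52 (SE 0.28), with an unadjusted *P* of 0.00067 and a DESeq2 adjusted *P* of 0.018. *PDIL1-2*, of the same family, had 506 and 295 CPM after A/HS, against 188 and 207 CPM after B/HS (1.02, SE 0.35). The log2 fold change of *PDIL1-2* was 0.58 without EW13 and 1.35 without EW14. Both genes lay above every B/HS library, which also held for 16.7 % of the one-to-one pairs. It held for 1063 of the 1100 higher genes at an unadjusted *P* under 0.05, so it adds little to their choice by *P*. *PDIL1-3* and *PDIL1-2* were the 2 of 10 tested that were higher at that mark, and 0 were lower, against 3.6 % and 7.58 % of the one-to-one pairs. The list median was 0.26. *HSP90-7*, the HSP90 of this compartment and the most abundant member, had 1193 and 1893 CPM after A/HS, against 1909 and 1378 CPM after B/HS, which overlap.

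Chaperones of the cytosol, mitochondria and chloroplasts, co-chaperones and heat shock factors had 0 of 15 tested higher at an unadjusted *P* under 0.05. At that mark stood 3.6 % of the one-to-one pairs, so this count does not stand out from the background. The list holds only paired genes and has no HSP70 or cytosolic HSP90 gene, so it does not cover those families. A total of 12 members had a log2 fold change above 0, against 693 of the 1546 one-to-one pairs tested in both species, and the median was 0.19. *HSP60*, a mitochondrial chaperonin, had 1057 and 1436 CPM after A/HS, against 975 and 465 CPM after B/HS (0.79, SE 0.45). *ROF1*, a peptidyl-prolyl isomerase that binds HSP90, had 2712 and 2842 CPM after A/HS, against 2072 and 1198 CPM after B/HS (0.76, SE 0.45). *FES1A*, a co-chaperone of HSP70, had 1314 and 1795 CPM after A/HS, against 1326 and 392 CPM after B/HS (0.86, SE 0.57). In all 3 genes EW12 was the lowest of the 4 libraries, and for *FES1A* EW11 lay between the A/HS libraries. Without EW12 the log2 fold changes were 0.35 for *HSP60*, 0.42 for *ROF1* and 0.23 for *FES1A*, and without EW11 they were 1.41, 1.20 and 1.97 in the same order. The 1 member past the mark in the lower direction, where 7.58 % of the one-to-one pairs stood, was the DnaJ-domain gene *AT4G37480*, at 7.04 and 6.83 CPM after A/HS, against 15.4 and 13.2 CPM after B/HS (-1.04, SE 0.36). *HSFA4A*, a heat shock factor, had 16.5 and 23.7 CPM after A/HS, against 15.1 and 13.6 CPM after B/HS (0.48, SE 0.34, unadjusted *P* = 0.20, or 0.19 without EW14 and 0.72 without EW13).

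Splicing factor genes stayed close to their B/HS levels on average, with a median log2 fold change of 0.13 over 25 tested that was 0.41 without EW13 and -0.12 without EW14. There was 1 member higher and 1 lower at an unadjusted *P* under 0.05, against 3.6 % and 7.58 % of the one-to-one pairs, so these counts do not stand out from the background. *SR45A*, a serine/arginine-rich splicing regulator induced by heat and strong light in *A. thaliana*, had 510 and 594 CPM after A/HS, against 337 and 245 CPM after B/HS (0.93, SE 0.33). *AFC3*, a kinase of the LAMMER family, whose members phosphorylate SR proteins, had 108 and 36 counts after A/HS, against 201 and 187 counts after B/HS (-1.03, SE 0.35). Neither gene had overlapping libraries, which also held for 16.7 % (higher) and 27 % (lower) of the one-to-one pairs. It held for 1063 of the 1100 higher and 1076 of the 1077 lower genes at that mark, so it adds little to their choice by *P*. *SR45* itself had 25.6 and 35.4 CPM after A/HS, against 22.6 and 26.0 CPM after B/HS, which overlap (0.32, SE 0.31, or 0.07 without EW14). The SR protein gene *RS31* differed by 0.61 (SE 0.28), at an unadjusted *P* of 0.062.

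The 9 cytosolic ribosomal protein genes tested were all higher after A/HS. Their list holds only paired genes, so it need not stand for all such genes. Like the other lists, it was chosen with earlier results of these data known. All 9 had both A/HS libraries above both B/HS libraries, against 16.7 % of the genes paired one-to-one, and 5 had an unadjusted *P* under 0.05, against 3.6 %. Their log2 fold changes were small, between 0.45 and 0.97, with a median of 0.70. The median was 0.60 without EW13, 0.62 without EW14, 0.66 without EW11 and 0.69 without EW12. *RPL9* had 369 and 311 CPM after A/HS, against 190 and 156 CPM after B/HS (0.97, SE 0.30). *RPL10A* had 316 and 231 CPM after A/HS, against 169 and 131 CPM after B/HS (0.86, SE 0.31). The other members past the mark were *RPL30B* (0.73), *RPS27B* (0.72) and *RPL4D* (0.70). Summed over the list, the level was 1787 and 1653 CPM after A/HS, against 1126 and 1006 CPM after B/HS. Ribosomal proteins are encoded by families of similar genes, so reads may have been divided among copies, and the counting rule for such reads is not given in the sources used here.

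The 12 one-to-one pairs that were higher with the smallest unadjusted *P* held no ribosomal protein gene and formed no list. With *PDIL1-3* and *DGR1* above, the following 7 of them are named by symbol or family. *NUC-L1*, a nucleolin needed for ribosomal RNA processing, had 83.3 and 101 CPM after A/HS, against 39.3 and 38.7 CPM after B/HS (1.24, SE 0.28). *FKBP53*, a nuclear histone chaperone that acts at ribosomal RNA genes, had 36.3 and 34.5 CPM after A/HS, against 11.6 and 18.8 CPM after B/HS (1.22, SE 0.34). *SAE1B*, a subunit of the enzyme that activates SUMO, had 34.6 and 26.7 CPM after A/HS, against 11.2 and 10.8 CPM after B/HS (1.48, SE 0.32). None of these had overlapping libraries, which also held for 16.7 % of the one-to-one pairs in this direction. It held for 1063 of the 1100 higher genes at an unadjusted *P* under 0.05, so it adds little to their choice by *P*. The hypoxia-responsive family gene *AT5G27760* had 62.4 and 65.4 CPM after A/HS, against 21.9 and 25.4 CPM after B/HS (1.43, SE 0.28, DESeq2 adjusted *P* = 0.042). The mitochondrial isocitrate dehydrogenase subunit *IDH2* differed by 1.28 (SE 0.33), the acyl-CoA-binding protein gene *ACBP3* by 1.35 (SE 0.34) and the vesicle traffic GTPase *RABE1C* by 0.93 (SE 0.27).

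**Figure D3:**
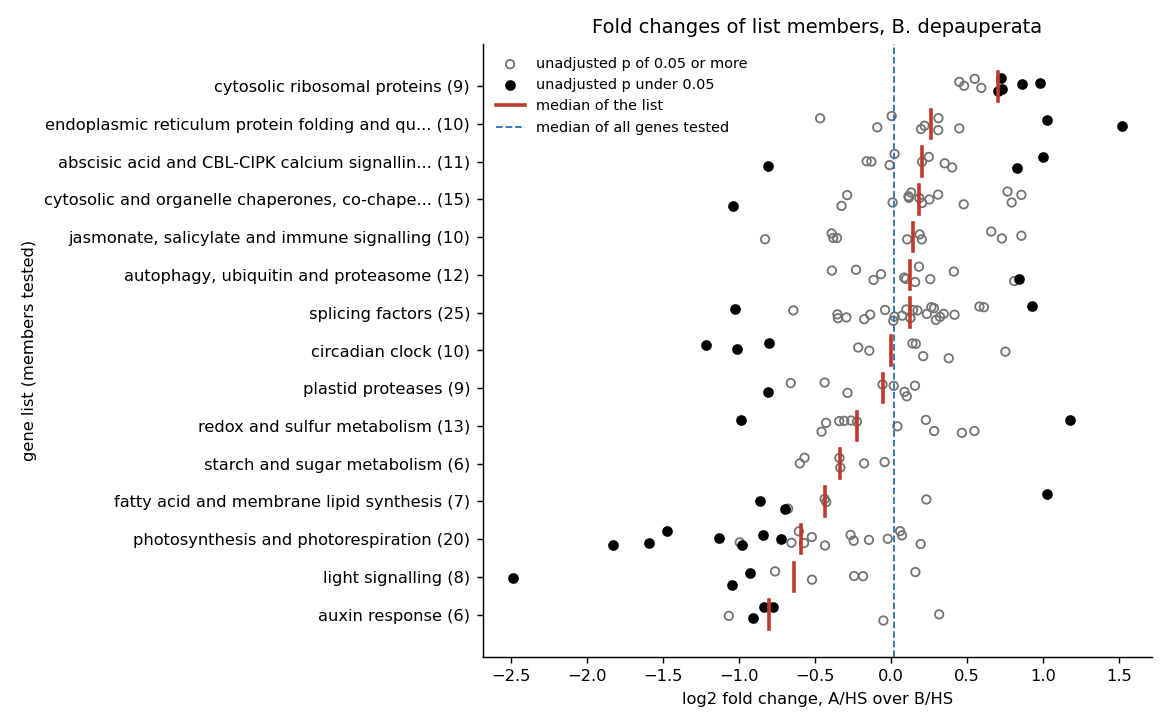
Log2 fold change of each tested member of 15 gene lists, A/HS over B/HS, with filled points for an unadjusted *P* under 0.05, a red bar for the list median and a dashed line for the median of all genes tested. Cytosolic ribosomal proteins lie at the top with every member above 0 and a median of 0.70, and photosynthesis, light signalling and auxin response lie at the bottom with medians of -0.59, -0.64 and -0.80.

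The remaining lists had members on both sides of 0 or few past the mark, where 3.6 % of the one-to-one pairs were higher and 7.58 % lower. Of 11 abscisic acid and calcium signalling genes, the kinases *CIPK8* (1.00, SE 0.32) and *SNRK2.3* (0.82, SE 0.30) were higher and the transcription factor *ABF4* (-0.81, SE 0.33) was lower at an unadjusted *P* under 0.05. *SNRK2.3*, a kinase activated by abscisic acid, had 349 and 322 CPM after A/HS, against 212 and 167 CPM after B/HS. *ABF4*, a target of such kinases, had 45.9 and 54.6 CPM after A/HS, against 110 and 66.9 CPM after B/HS, and its log2 fold change was -0.43 without EW11. Both members of this signalling chain were on opposite sides of their B/HS levels. Of 7 lipid genes, the desaturase *ADS2* was higher (1.02, SE 0.31), and *AAE15*, an acyl-activating enzyme (-0.86, SE 0.27), and *KAS2*, an enzyme of fatty acid elongation (-0.70, SE 0.30), were lower. Of 13 redox and sulfur genes, *CYSD2*, a cysteine synthase, was lower (-0.99, SE 0.32), and the microsomal glutathione S-transferase *MGST* was higher (1.17, SE 0.48) through EW14, at 72.4 and 216 CPM after A/HS against 54.8 and 72.9 CPM after B/HS. Without EW14 its log2 fold change was 0.18. Of 12 autophagy, ubiquitin and proteasome genes, *RBX1*, a ubiquitin ligase subunit, was higher (0.84, SE 0.36). No member passed that mark among 10 jasmonate, salicylate and immune genes (median 0.15) or 6 starch and sugar genes (median -0.34, all 6 below 0). Of the 1546 one-to-one pairs tested in both species, 693 were above 0 in *B. depauperata*.

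The same contrast was available in *A. thaliana*, with 2 libraries labelled 43 °C (A/HS) and 2 labelled 38 °C (B/HS), and the difference between species was tested over 1546 one-to-one pairs. No pair passed an adjusted *P* of 0.05 in edgeR's test of the species-by-treatment interaction (0 %). At an unadjusted *P* under 0.05, the change in *B. depauperata* lay above that in *A. thaliana* for 101 pairs (6.53 %) and below it for 120 (7.76 %). DESeq2 called 15 pairs, 7 above and 8 below. The median log2 fold change over these pairs was -0.07 in *B. depauperata* and -0.07 in *A. thaliana*. Levels are not compared between the species, since the reads were counted on different gene models.

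Among the pairs that DESeq2 called, 3 belonged to the chaperone and splicing lists. *HSP60* differed by 0.79 (SE 0.45) in *B. depauperata* and by -1.17 (SE 0.22) in *A. thaliana*, a difference of 1.96 (SE 0.54, unadjusted *P* = 0.0033, DESeq2 adjusted *P* = 0.014). *ROF1* differed by 0.76 (SE 0.45) in *B. depauperata* and by -0.80 (SE 0.27) in *A. thaliana*, a difference of 1.57 (SE 0.53). *SR45A* differed by 0.93 (SE 0.33) in *B. depauperata* and by -0.61 (SE 0.20) in *A. thaliana*, a difference of 1.53 (SE 0.42, unadjusted *P* = 0.0030, DESeq2 adjusted *P* = 0.014). The signs were opposite in the species for all 3 genes. The *B. depauperata* values of *HSP60* and *ROF1* depended on EW12, at 0.35 and 0.42 without it. *FES1A*, which DESeq2 did not call, also differed in sign, at 0.86 (SE 0.57) and -0.80 (SE 0.24), a difference of 1.65 (SE 0.68), but its *B. depauperata* value was 0.23 without EW12. Of 15 pairs of the chaperone list, 3 were above and 0 below at an unadjusted *P* under 0.05, against 6.53 % and 7.76 % of all pairs, and the median was 0.19 in *B. depauperata* and -0.34 in *A. thaliana*. The median of the 15 differences was -0.02, the same as over all pairs.

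Further pairs with opposite signs were *FKBP53* and *ADS2*, both called by DESeq2. *FKBP53* differed by 1.22 (SE 0.34) in *B. depauperata* and by -0.68 (SE 0.20) in *A. thaliana*, and *ADS2* by 1.02 (SE 0.31) and -0.66 (SE 0.18). *CRR7* was the reverse case, at -1.83 (SE 0.44) in *B. depauperata* and 0.56 (SE 0.27) in *A. thaliana*, a difference of -2.37 (SE 0.48, unadjusted *P* = 0.00035, DESeq2 adjusted *P* = 0.0215). *PIF4* was below 0 in both species, at -2.48 (SE 0.33) in *B. depauperata* and -1.07 (SE 0.27) in *A. thaliana*, a difference of -1.42 (SE 0.41, unadjusted *P* = 0.0042, edgeR adjusted *P* = 0.20). *COP1* differed by -0.93 (SE 0.31) in *B. depauperata* and by 0.04 (SE 0.23) in *A. thaliana*. *GLDP1* differed by -1.59 (SE 0.37) and -0.15 (SE 0.23), a difference of -1.44 (SE 0.49).

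Other pairs had the same sign in both species. *PDIL1-3* differed by 1.52 (SE 0.28) in *B. depauperata* and by 1.07 (SE 0.22) in *A. thaliana*, *ACBP3* by 1.35 (SE 0.34) and 1.45 (SE 0.23), *SPA3* by -1.05 (SE 0.35) and -0.90 (SE 0.21), and *LOG1* by -1.90 (SE 0.36) and -1.20 (SE 0.19). For these pairs the unadjusted *P* of the species difference lay between 0.12 and 0.82, which with 2 libraries per arm does not show equal changes. For *LOG1* the difference was -0.68 (SE 0.41). The 8 ribosomal protein pairs had a median of 0.71 in *B. depauperata* and 0.22 in *A. thaliana*, and 2 of them were above at an unadjusted *P* under 0.05 and 0 below, against 6.53 % and 7.76 % of all pairs. *RPL9* was at 0.97 (SE 0.30) in *B. depauperata* and -0.11 (SE 0.18) in *A. thaliana*, and *RPS27B* at 0.72 (SE 0.30) and 0.72 (SE 0.18). The members of this list thus ranged from a difference of 1.09 (SE 0.36) to one of 0.01 (SE 0.35).

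**Figure D4:**
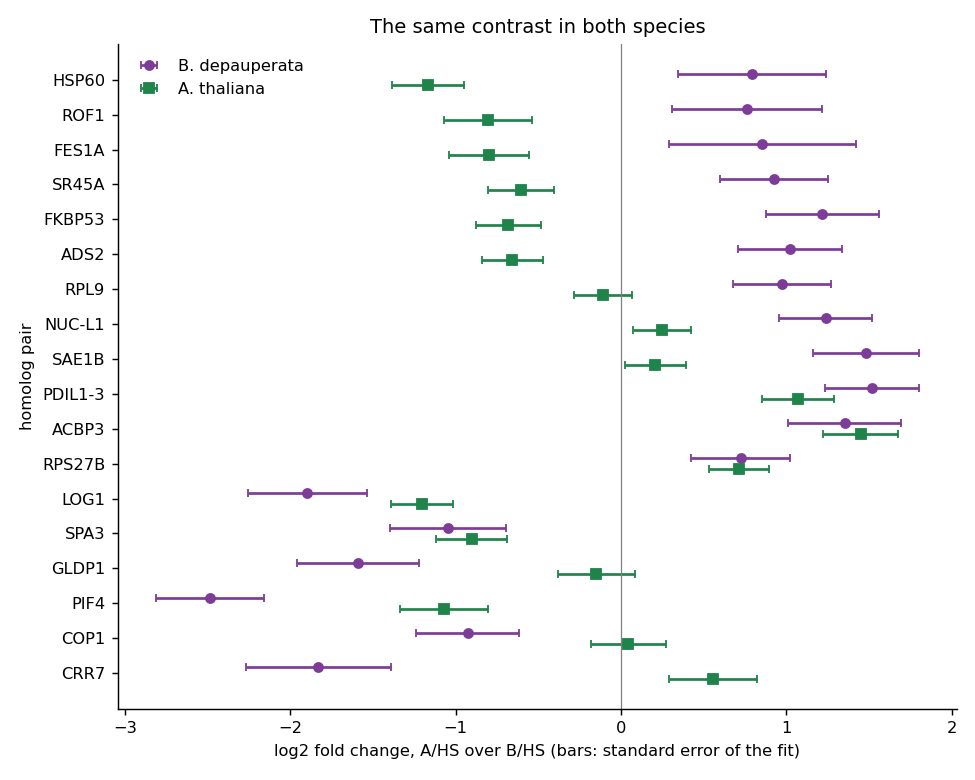
Log2 fold change of A/HS over B/HS in *B. depauperata* (purple circles, upper of each pair) and *A. thaliana* (green squares, lower) for 18 homolog pairs, with bars for the standard error of the fit. The pairs from *HSP60* to *ADS2* lie above 0 in *B. depauperata* and below 0 in *A. thaliana*, and *PDIL1-3*, *ACBP3* and *RPS27B* lie close together.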

How the data were processed

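The deposited values are raw read counts per gene and library, which the authors made from reads aligned with TopHat (version 1.4.1 in the submitters' processing notes). How reads were counted (program, strand, multiple matches) is not given in the sources used here. Counts of EW13, EW14, EW11 and EW12 were filtered (filterByExpr), scaled with TMM and fitted with edgeR 4.0.16 (glmQLFit, glmQLFTest, R 4.3.3), with Benjamini-Hochberg adjustment over all genes tested. DESeq2 1.42.0 was an alternative. The main edgeR fit and DESeq2 were also run on simulated counts, and that outcome is not given here. SE is the standard error of the log2 fold change. The species interaction was fitted over one-to-one pairs with each species' own library sizes and TMM factors. Every column of the 4 libraries could be assigned to a sample from its name.

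Genes named are the 8 per direction with the smallest unadjusted *P* and libraries that do not overlap, the 5 per direction with the largest fold change and at least 20 counts in each library of the higher arm, the 12 per direction with the smallest *P* among one-to-one pairs, the 4 smallest *P* and the most abundant member of each list, the 4 per direction that DESeq2 called with the smallest adjusted *P*, and *HSFA4A* and *SR45*. Some are given only as counts. The members, lists and rules were chosen with earlier results of these data known. Alternatives tried were DESeq2, all 6 libraries, RLE scaling, other count filters, the legacy fit, a fold-threshold test, thinning to equal depth and each library left out.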

Additional observations from a re-analysis of the deposited data

How the results depend on the processing

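The count of 0 DE genes in edgeR stayed 0 with all 6 libraries, RLE scaling, at least 10 counts in every library, all genes with at least 1 count, the legacy fit, adjusted *P* alone, a test against a 2-fold change, thinned libraries and, chosen after seeing the data, without the 4 genes with the most counts. It was 76 in DESeq2 on the 4 libraries (124 by adjusted *P* alone, added after seeing the data), 115 in DESeq2 on 6 libraries, and between 0 and 152 with 1 library left out. DESeq2 gave 683 lower genes at an unadjusted *P* under 0.05, and with 1 library left out such counts were 461 to 1601 (higher) and 365 to 1520 (lower). Of the 76 DESeq2 calls, 71 were shared with the fit on 6 libraries (93.4 % of 76, 61.7 % of 115) and 47 with edgeR without EW13 (61.8 % of 76, 30.9 % of 152), a fit with 1 A/HS library and so no spread within that arm. With 1 library left out, list medians ranged from 0.014 to 0.49 (chaperones), 0.045 to 0.42 (endoplasmic reticulum), -0.12 to 0.41 (splicing), -0.43 to 0.22 (clock), -0.77 to -0.30 (photosynthesis), -0.39 to 0.14 (plastid proteases), -0.044 to 0.30 (abscisic acid and calcium), -0.26 to 0.32 (jasmonate, salicylate and immune), -1.08 to -0.48 (auxin), -0.30 to -0.019 (redox and sulfur), 0.60 to 0.69 (ribosomal proteins), -0.47 to -0.29 (starch and sugar), -0.85 to -0.28 (lipids), -0.87 to -0.39 (light signalling) and 0.021 to 0.21 (autophagy, ubiquitin and proteasome). Ribosomal proteins, at 0.70 in the main fit, had a median of 0.72 in DESeq2 on 6 libraries. It was 0.67, 0.68 and 0.67 with at least 10 counts, at least 1 count and thinned libraries. These shifts from 0.70 exceed an SD of 0.0077 between replicate libraries. That SD is of the list's median log2 CPM after centring each gene, in which opposite differences of members cancel. The summed level of the list was 1787 and 1653 CPM in EW13 and EW14, and 1126 and 1006 CPM in EW11 and EW12. The jasmonate list had a median of 0.023 when thinned. *HSP90-7* reversed to 0.20 without EW13 and 0.14 without EW11. The cause of these shifts was not tested.

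The species comparison called 15 pairs in DESeq2 and between 0 and 14 with 1 of 8 libraries left out (14 without EW11, of which 10 were above and 4 below). Its pairs at an unadjusted *P* under 0.05 were between 100 and 333 with 1 library left out. In edgeR with the index tag shared between species as a replicate block, 0 pairs were called and 250 had an unadjusted *P* under 0.05. Libraries with a shared tag deviated together only weakly (r = 0.11 in A/HS and 0.12 in B/HS over 1546 pairs), so the tags were not taken to pair the samples. No paired analysis was possible because the labels give no replicate number that links an A/HS library of *B. depauperata* to a B/HS one. A count of 3 corresponds to 0.975 CPM in EW14, the shallowest library, so genes below that level after A/HS were not resolved.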

Other observations

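Of the 76 genes that DESeq2 called, 2 had an *A. thaliana* partner. Some of the 191 genes at least 4-fold higher carried consecutive identifiers on a *B. stricta* scaffold, and this was noticed after their values were seen. This held for 9 of the 191, and for 2 of the 104 that were at least 4-fold lower. The share among all genes tested was not counted, so these counts cannot be set against a background. Bostr.0697s0069, Bostr.0697s0070 and Bostr.0697s0071 formed a run of 3. They had 100 and 666, 67 and 409, and 67 and 376 counts in EW13 and EW14, against 14 and 40, 6 and 14, and 10 and 15 counts in EW11 and EW12. Bostr.12659s0216 and Bostr.12659s0217 had 44 and 304, and 54 and 336 counts after A/HS, against 8 and 18, and 9 and 15 counts after B/HS. In every one of these 5 genes EW14 was the high library. How reads matching several neighbouring copies were counted is not given in the sources used here.

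The 15 pairs that DESeq2 called in the species comparison included 9 that no rule for named genes had chosen, and they are given as seen after the fact. *SQD2*, which makes the sulfolipid of chloroplast membranes, differed by -0.34 (SE 0.37) in *B. depauperata* and by 1.88 (SE 0.19) in *A. thaliana*. *SAG13*, a gene of leaf senescence, differed by -1.41 (SE 0.54) in *B. depauperata* and by 1.16 (SE 0.24) in *A. thaliana*. *4CL3* and *CAD1* of the phenylpropanoid pathway, the transporter gene *UMAMIT38* and the genes *AT3G06880* and *AT2G23910* were likewise below 0 in *B. depauperata* and above 0 in *A. thaliana*. *BGLU16*, a beta-glucosidase, differed by 0.83 (SE 0.33) in *B. depauperata* and by -0.92 (SE 0.20) in *A. thaliana*, and *AT1G27020* by 1.01 (SE 0.44) and -1.23 (SE 0.20). Their edgeR adjusted *P* values lay between 0.108 and 0.197.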
